A study of Mus musculus with 1536 samples.

Results

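The serotonin identity transcription factors described here are 8 genes known as regulators of serotonin neuron development: Fev (Pet1), Lmx1b, Gata2, Gata3, En1, En2, Foxa1 and Foxa2. They are 8 of the 53263 genes in the deposited table, and all 8 were found in it by symbol. Their levels were measured by Smart-seq2, which makes 1 full-length cDNA library from each sorted cell, in 999 single cells. The cells came from Sert-Cre;Ai14 mice of C57BL/6J background, 40 to 45 days old, whose serotonin transporter gene drives Cre and thereby switches on the red protein tdTomato; both groups carry these 2 alleles and no treatment was given. One group, called principal DR here, holds 290 cells on 5 plates from the main part of the dorsal raphe. The other, called all DR, holds 709 cells on 11 plates, and by the paper's account its dissection also took in the caudal dorsal raphe and the median raphe, which the labels do not name. By the paper's account each dissection was made in several brains, but the labels do not say which animal a cell came from. Each dissection is therefore treated as 1 sample and no p-value is given. The spread between plates stands in its place, and plates within a dissection may share animals.

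Values are in CPM, the reads of a gene per 1000000 reads counted on genes in that cell. The number of reads per cell had a median of 755925.5 in the principal DR (231674 to 2780443) and of 869546 in all DR (96834 to 2493904). A gene is called detected in a cell with at least 1 read, and each share of cells is followed by its 95% interval (Clopper-Pearson), which covers counting error only, since PCR reads without molecular identifiers are not independent molecules. For a share of 0 the limit given is 3 cells of the number examined, a rule that ends lower than the exact interval drawn in the plot of detection by cell set. The sort and the table select serotonin neurons, and their markers were as the label has them. Tph2, which encodes the enzyme that starts serotonin synthesis in neurons, was detected in all 999 cells at a mean of 9608 CPM. Slc6a4, the serotonin transporter, was detected in 997 cells and Slc18a2, the vesicular monoamine transporter, in 998. The 4 genes listed for dopamine neurons summed to a mean of 1.06 CPM, with Th the most abundant at 0.675 CPM, and the 3 for noradrenaline neurons summed to 0.140 CPM. Of the oligodendrocyte list, all 5 genes were detected, their sum had a median of 24.2 CPM, and 1 cell reached 77436 CPM. Mbp, a myelin gene, was the most abundant of this list at a mean of 115 CPM. The summed means were 4.42 CPM for the 4 astrocyte genes, 0.289 CPM for the 4 microglia genes, 0.386 CPM for the 3 endothelial genes and 0.270 CPM for the 4 ependymal genes. The 4 genes listed for GABA neurons, which include Gad1 and Gad2, summed to a mean of 85.0 CPM and a median of 0 CPM.

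In the embryo, serotonin neurons arise from progenitors in the ventral hindbrain, and a cascade of transcription factors turns on the genes for making, storing and taking up serotonin. Foxa1 and Foxa2 are forkhead factors of the ventral midline that act in progenitors. Gata2 and Gata3 are zinc finger factors, with Gata2 acting early in the lineage. Lmx1b, a LIM homeodomain factor, and Fev, an ETS factor nearly confined in the brain to serotonin neurons, act in the newborn neuron and are kept in the adult, where they are needed to maintain its transmitter genes. En1 and En2 are homeodomain factors of the midbrain and anterior hindbrain, so they mark position along the brain axis as well as acting in the neurons born there.

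Promoter windows from RefSeq (GRCm38.p6, 250 bases before to 50 after a gene's start) were searched on both strands for the core letters that each class of factor is known to bind. The letters were CCGGAA for ETS factors, AGATAA for GATA factors, TAATTA for homeodomain factors and TGTTTAC for forkhead factors, and none of these overlapped another where found. They were present in 14.9%, 11.2%, 5.29% and 3.65% of all 32851 windows. Windows were at hand for 10 of the 11 genes searched (the 8 regulators, Tph2, Slc6a4 and Slc18a2), with En2 the gene without one. Of 13 windows, 8 held at least 1 match. The 3 windows printed below are those of Fev and of the serotonin genes that held the GATA letters, and are shown because Gata2 and Gata3 are among the most abundant regulators in these cells. Each is the part before the gene's start, read 5′ to 3′ on the gene's strand, with the matched letters in capitals.
Fev, chr1:74885409-74885658, minus strand: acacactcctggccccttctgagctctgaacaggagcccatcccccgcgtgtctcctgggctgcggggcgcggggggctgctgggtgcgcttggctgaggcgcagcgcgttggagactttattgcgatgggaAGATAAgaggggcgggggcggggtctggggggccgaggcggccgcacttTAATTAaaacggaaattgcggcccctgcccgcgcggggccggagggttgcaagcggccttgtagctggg
Tph2, chr10:115185023-115185272, minus strand: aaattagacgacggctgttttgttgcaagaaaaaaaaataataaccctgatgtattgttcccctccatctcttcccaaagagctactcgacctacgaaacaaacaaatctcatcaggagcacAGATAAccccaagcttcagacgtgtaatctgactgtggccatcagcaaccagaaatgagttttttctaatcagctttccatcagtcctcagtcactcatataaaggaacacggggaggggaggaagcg
Slc18a2, chr19:59260628-59260877, plus strand: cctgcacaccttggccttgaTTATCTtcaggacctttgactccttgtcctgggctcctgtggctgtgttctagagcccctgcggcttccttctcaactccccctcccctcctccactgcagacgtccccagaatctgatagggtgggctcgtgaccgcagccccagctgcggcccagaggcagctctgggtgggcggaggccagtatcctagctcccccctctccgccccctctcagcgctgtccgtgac
In Fev the GATA letters begin 118 bases before the start and are followed by the homeodomain letters at 69 bases before it. Tph2 has the GATA letters 128 bases before its start, and Slc18a2 has them on the opposite strand, 230 bases before its start. The windows of Gata3 and En1 held the ETS letters and that of Foxa1 the forkhead letters, while 1 of the 3 windows of Foxa2 held the ETS letters and 1 the GATA letters. No match was in the windows of Lmx1b, Slc6a4 and Gata2, which has 2 windows. A match is a description of the letters only.

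Of the 8 regulators, 5 were detected in at least 50% of the 999 cells, beside 17.2% of all 53263 genes and 71.3% of the 12834 genes with a mean of at least 1 CPM, so that the count alone does not set the regulators apart from expressed genes. Fev was detected in 999 cells, Gata3 in 995 (99.6%, 99.0 to 99.9%), Gata2 in 989 (99.0%, 98.2 to 99.5%), Lmx1b in 874 (87.5%, 85.3 to 89.5%) and En1 in 727 (72.8%, 69.9 to 75.5%). Foxa1 was detected in 118 cells (11.8%, 9.88 to 14.0%), En2 in 117 (11.7%, 9.78 to 13.9%) and Foxa2 in 1. Fev, Gata2 and Gata3 were detected together in 985 cells (98.6%, 97.7 to 99.2%), and with Lmx1b in 868 (86.9%, 84.6 to 88.9%). No cell had fewer than 2 of the 8, and 490 cells, the most for any number, had 5. Per kilobase of the union of exons in GENCODE M21 the order of mean levels was Fev (137 CPM per kb), Gata3 (113), Gata2 (29.5), En1 (7.62), Lmx1b (3.58), Foxa1 (0.640), En2 (0.194) and Foxa2 (0.00338). For comparison, Tph2 stood at 3337 CPM per kb and Slc6a4 at 830.

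The spread between cells differed between the regulators. Fev, on chr1:74881509-74885419, ranged from 103 CPM at the 5th percentile of cells to 401 CPM at the 95th, and its coefficient of variation within a plate (the SD over the mean) had a median of 0.393 over the 16 plates. That of Slc18a2 was 0.398 and that of Slc6a4 0.324. Gata3, on chr2:9857078-9890034, had a coefficient of variation of 0.444, and Gata2, on chr6:88193891-88207032, one of 0.567. Lmx1b, on chr2:33560965-33640511, stood at 0.914, but a cell in which it was detected had a median of 13 reads, so that counting error is part of its spread. Other genes overlap 5.83% of the exon bases of Gata3, a gene on the same strand and a gene on the opposite strand. Reads were counted without regard to strand, so reads on these bases cannot be assigned to Gata3 with certainty. The share of bases is not a share of reads, and the effect on the value of Gata3 was not measured. The exons of the other 7 regulators overlap no other gene in that annotation.

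Between the dissections, 1 of the 8 regulators differed by at least 2-fold in the mean of plate means, En1, beside 5.51% of those 12834 genes. En1, on chr1:120602418-120607992, had plate means of 29.8, 35.2, 22.3, 48.1 and 39.8 CPM in the 5 principal DR plates. In the 11 all DR plates it ranged from 6.38 to 19.4 CPM, with a median of 14.1 CPM. The plate means of En1 did not overlap between the dissections, and it was the only one of the 8 for which this held, beside 9.10% of all genes tested in either direction. The mean was 35.0 ± 9.79 CPM (SD over 5 plates) against 13.5 ± 5.15 CPM (SD over 11 plates), a log2 ratio of 1.31, where 1 CPM was added to each mean, and of 0.94, short of 2-fold, with 10 CPM added. It was detected in 289 of 290 principal DR cells (99.7%, 98.1 to 100.0%) and in 438 of 709 all DR cells (61.8%, 58.1 to 65.4%). By plate, its share ran from 97.6% to 100% in the principal DR and from 18.5% to 74.3% in all DR. With every cell thinned to 250000 reads, which left out 9 shallower cells, the shares over all cells of each dissection were 97.9% and 59.9%.

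The factors found in nearly every cell differed less. Fev had plate means of 253, 221, 223, 200 and 209 CPM in the principal DR and of 173 to 274 CPM (median 208) in all DR, with a log2 ratio of 0.04. Gata3 had 439, 441, 513, 389 and 437 CPM in the principal DR and 335 to 582 CPM (median 459) in all DR. Gata2 had 160, 169, 125, 158 and 125 CPM in the principal DR against 125 to 183 CPM (median 169), and Lmx1b 17.7, 17.8, 20.8, 9.31 and 15.4 CPM against 13.3 to 25.2 CPM (median 16.5). For these 4 genes the plates of the dissections overlapped, and the log2 ratios lay between -0.13 and 0.04. En2, on chr5:28165694-28172166, was detected in 72 of 290 principal DR cells (24.8%, 20.0 to 30.2%) and 45 of 709 all DR cells (6.35%, 4.67 to 8.40%). Thinned to the same depth, its shares were 15.2% and 4.14%. Its log2 ratio was 0.65 with 1 CPM added and 1.34 with 0.1 CPM added, and its plate means, from 0.514 to 1.82 CPM and from 0 to 0.962 CPM, overlapped.

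**Figure D1:**
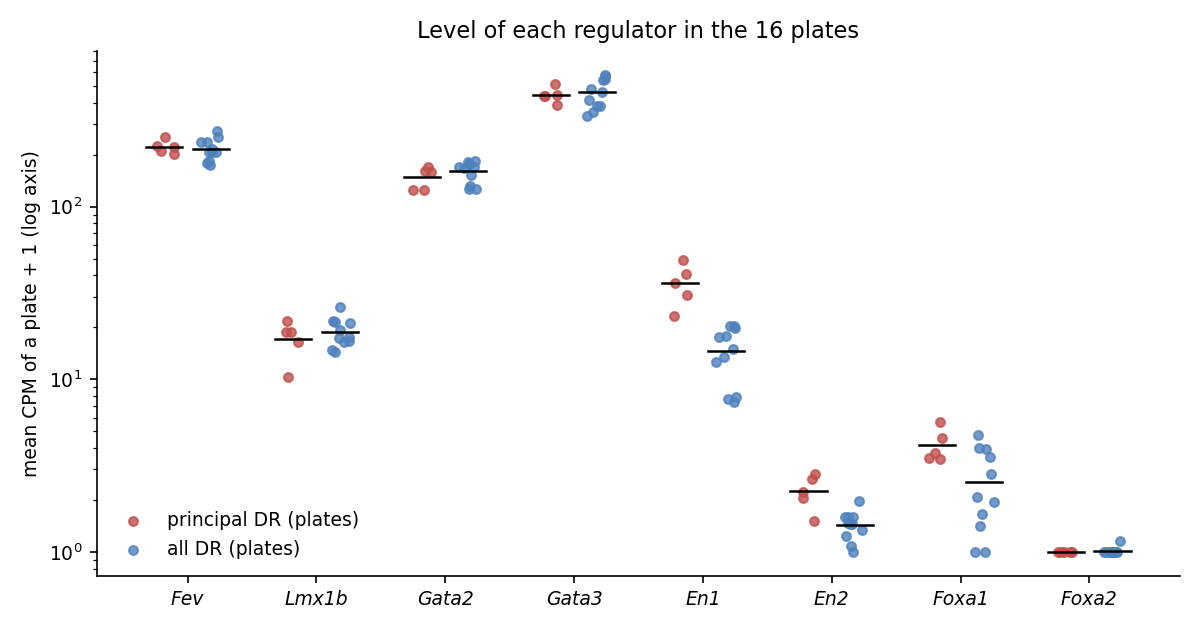
Mean CPM of each regulator in each plate, plus 1, on a log axis; points are the 5 principal DR plates (red) and the 11 all DR plates (blue), and black lines are the means of the plate means. En1 alone shows no overlap, with 22.3 to 48.1 CPM in the principal DR plates and 6.38 to 19.4 CPM in the others.

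Marker-defined cells were compared within plates for every log2 ratio, while the means and shares given beside the ratios are over all cells of both dissections. Cells were called positive for a marker with at least 1 read of it, and their mean CPM was divided by that of negative cells (1 CPM added to each, on a log2 scale) in each plate with at least 3 cells of each. Slc17a8 encodes the vesicular glutamate transporter Vglut3 (649 positive cells), Gad1 and Gad2 the enzymes that make GABA (347 with either), and Trh the peptide thyrotropin-releasing hormone (138). Zeb2 (150) and Irx2 (164) encode transcription factors. The paper reports Zeb2 in its caudal dorsal raphe cluster and in a median raphe cluster, and Irx2 in other median raphe clusters. Zeb2-positive cells may therefore come from both regions, which were not separated here. The sets overlap: 126 of the 138 Trh-positive cells were also positive for Gad1 or Gad2, 121 of the 150 Zeb2-positive cells for Slc17a8, and 5 cells for both Zeb2 and Irx2. Of the Zeb2-positive cells 3, and of the Irx2-positive cells 10, were in the principal DR. Median reads per cell were 864647.5 in Zeb2-positive and 820062 in Zeb2-negative cells, and 783036.5 and 843549 in Irx2-positive and Irx2-negative cells.

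Zeb2-positive cells had less Gata2 and more Gata3 than the other cells of their plates. The mean of Gata2 was 79.3 CPM in 150 Zeb2-positive and 173 CPM in 849 Zeb2-negative cells, and it was lower on 11 of 11 plates, with a median log2 ratio of -1.41 (-2.31 to -0.40). The mean of Gata3 was 626 CPM against 417 CPM, and it was higher on 11 of 11 plates, with a median log2 ratio of 0.61 (0.26 to 0.67). The plates ranged widely for Gata2 and little for Gata3. Gata2 was still detected in 147 of the 150 cells, so the difference was one of level. En1 was lower on 10 of 11 plates, with a median log2 ratio of -1.43 (-3.70 to 0.16), and was detected in 48 of 150 Zeb2-positive cells (32.0%, 24.6 to 40.1%) against 80.0% of the others. Within the all DR dissection these shares were 30.6% and 69.9%. All 3 Zeb2-positive cells of the principal DR had En1, and no principal DR plate entered the ratios for Zeb2. In all, 3 of the 8 regulators were past 2-fold in the median (Gata2, En1 and Foxa1), each lower in Zeb2-positive cells, beside 8.66% of genes tested in either direction, and with 10 CPM added En1 (-0.68) and Foxa1 were short of it. The median log2 ratio over the 8 was -0.40, beside -0.02 over all genes tested. Of a list of 10 serotonin genes, 1 was past 2-fold, Htr1b, which encodes a serotonin receptor, lower at -2.25. Slc6a4 was lower on 10 of 11 plates (-0.61) and Tph2 higher on 10 of 11 (0.23). The oligodendrocyte list had a median sum of 28.1 CPM in Zeb2-positive and 23.3 CPM in Zeb2-negative cells, and the microglia list, in which Tmem119 is the most abundant gene, a mean sum of 0.794 and 0.199 CPM. Their part in the differences was not tested.

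In single cells the ratio of Gata3 to Gata2 was higher in Zeb2-positive cells, with ranges that overlapped. Its median on the log2 scale, with 1 CPM added to each, was 3.15 over the 150 Zeb2-positive cells (1.35 to 5.86 from the 5th to the 95th percentile) and 0.83 over the 164 Irx2-positive cells (-0.28 to 2.99), beside 1.52 over all 999. Gata2 exceeded Gata3 in 1 Zeb2-positive cell, in 18 Irx2-positive cells and in 95 cells in all. Over all plates the genes showed no steady relation to each other, with a median within-plate Pearson r of ln(CPM+1) of -0.03 (-0.43 to 0.32, above 0 on 8 of 16 plates). Both were detected in 985 cells, Gata3 alone in 10 and Gata2 alone in 4.

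**Figure D2:**
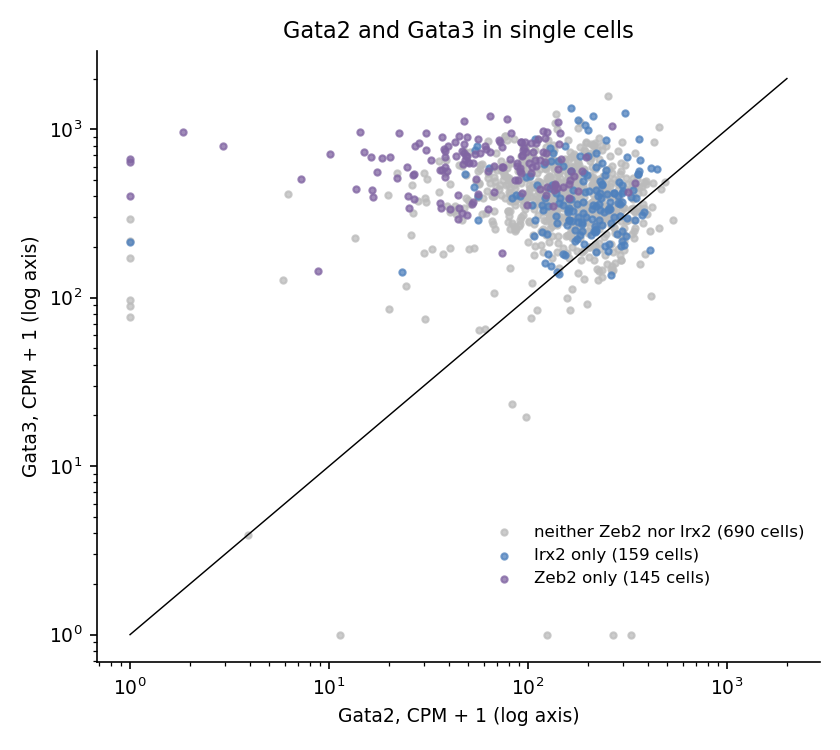
CPM plus 1 of Gata2 (horizontal) and Gata3 (vertical) in single cells, on log axes, coloured by detection of Zeb2 or Irx2; the 5 cells with both are not drawn, and the line marks equal values. The sets overlap, with a median log2 ratio of Gata3 to Gata2 of 3.18 over the 145 cells with Zeb2 only (1.59 to 5.98 from the 5th to the 95th percentile) and 0.83 over the 159 cells with Irx2 only (-0.29 to 2.85).

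Irx2-positive cells had En1 and Foxa1 at lower levels and Gata2 at a higher one. The mean of En1 was 5.14 CPM in 164 Irx2-positive and 22.9 CPM in 835 Irx2-negative cells, lower on 12 of 12 plates, with a median log2 ratio of -1.59 (-3.61 to -0.11). It was detected in 40 of the 164 cells (24.4%, 18.0 to 31.7%) against 82.3% of the others, and within the all DR dissection in 19.5% against 73.5%. In the principal DR all 10 Irx2-positive cells had En1, at a mean of 26.7 CPM against 33.7 CPM in Irx2-negative cells. The log2 ratio of En1 was -0.19 on the 1 principal DR plate compared. Its median over the 11 all DR plates was -1.81, and the difference was not tested. Gata2 was higher on 12 of 12 plates, at 202 CPM against 151 CPM, with a median log2 ratio of 0.41 (0.07 to 0.94), short of 2-fold. Its direction was thus opposite to that in Zeb2-positive cells, where it was lower on every plate; these sets share most of their control cells, and the difference was not tested. Gata3 was lower on 8 of 12 plates (-0.06), Fev on 8 of 12 (-0.06), and Lmx1b was higher on 8 of 12 (0.13). In all, 2 of the 8 were past 2-fold (En1 and Foxa1), both lower, beside 2.70% of genes tested in either direction, and with 10 CPM added neither was (En1 at -0.86). Of the 10 serotonin genes 0 were past 2-fold, with Tph2 lower on 11 of 12 plates (-0.36), Slc6a4 lower on 10 of 12 (-0.29) and Slc18a2 higher on 11 of 12 (0.33). The oligodendrocyte list had a median sum of 33.2 CPM in Irx2-positive and 22.7 CPM in Irx2-negative cells, and the microglia list a mean sum of 0 and 0.345 CPM; the part of the former in the differences was not tested.

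**Figure D3:**
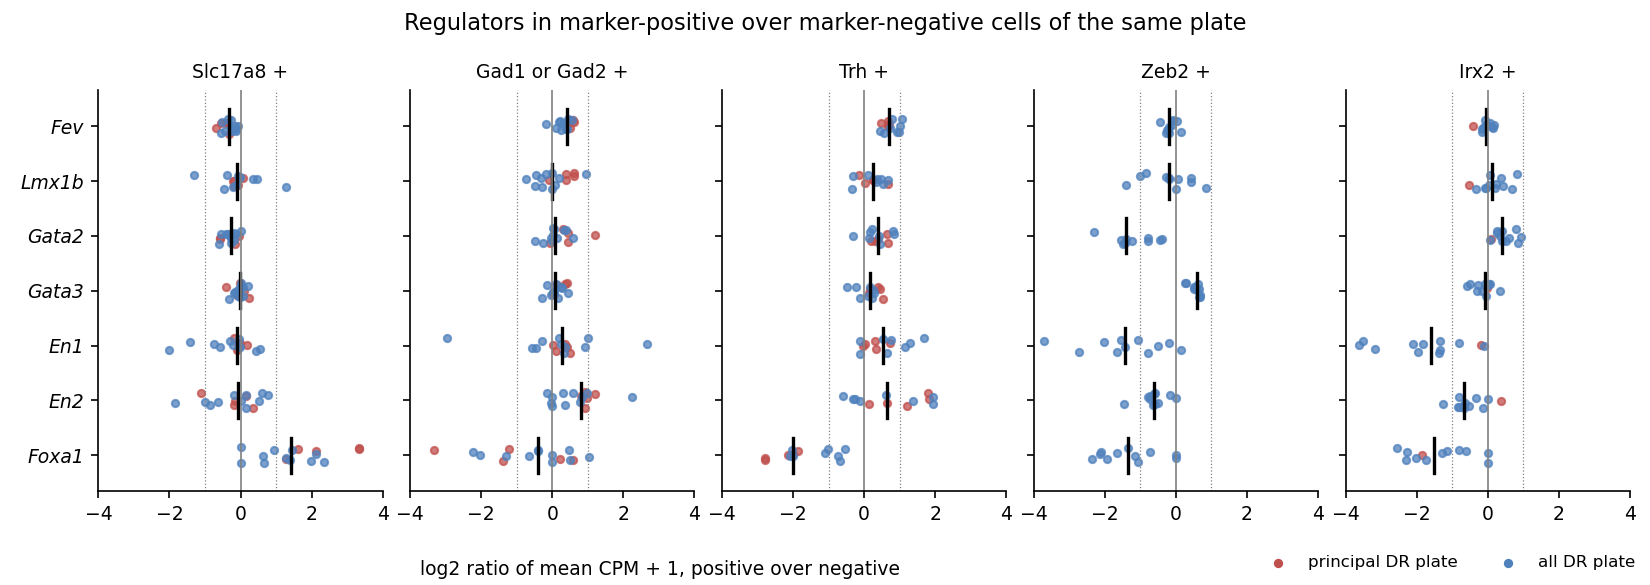
Log2 ratio of mean CPM plus 1 between marker-positive and marker-negative cells of the same plate, for 7 regulators and 5 markers; points are principal DR (red) and all DR (blue) plates with at least 3 cells of each set, black lines are medians, and dotted lines mark 2-fold. Gata2 lies below 0 on all 11 plates for Zeb2 and above 0 on all 12 for Irx2, and Fev above 0 on all 13 for Trh.

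In the all DR dissection, cells without En1 were mostly cells with Irx2 or Zeb2. Of the 271 cells in which En1 was not detected, 223 (82.3%, 77.2 to 86.6%) had a read of Irx2 or Zeb2, 124 of them Irx2 and 102 Zeb2. Of the 438 cells with En1, 73 (16.7%, 13.3 to 20.5%) had either. Among cells with Irx2 alone, 28 of 149 (18.8%, 12.9 to 26.0%) had En1, and among cells with Zeb2 alone 43 of 142 (30.3%, 22.9 to 38.5%). Among the 413 all DR cells with neither, En1 was detected in 365 (88.4%, 84.9 to 91.3%) at a mean of 21.3 CPM, still under the 99.7% and 33.4 CPM of principal DR cells. En2 and Foxa1 were detected in 0 of the 149 and 0 of the 142 cells, which allows shares of up to 2.01% and 2.11%, and in 45 and 74 of the 413 cells with neither.

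**Figure D4:**
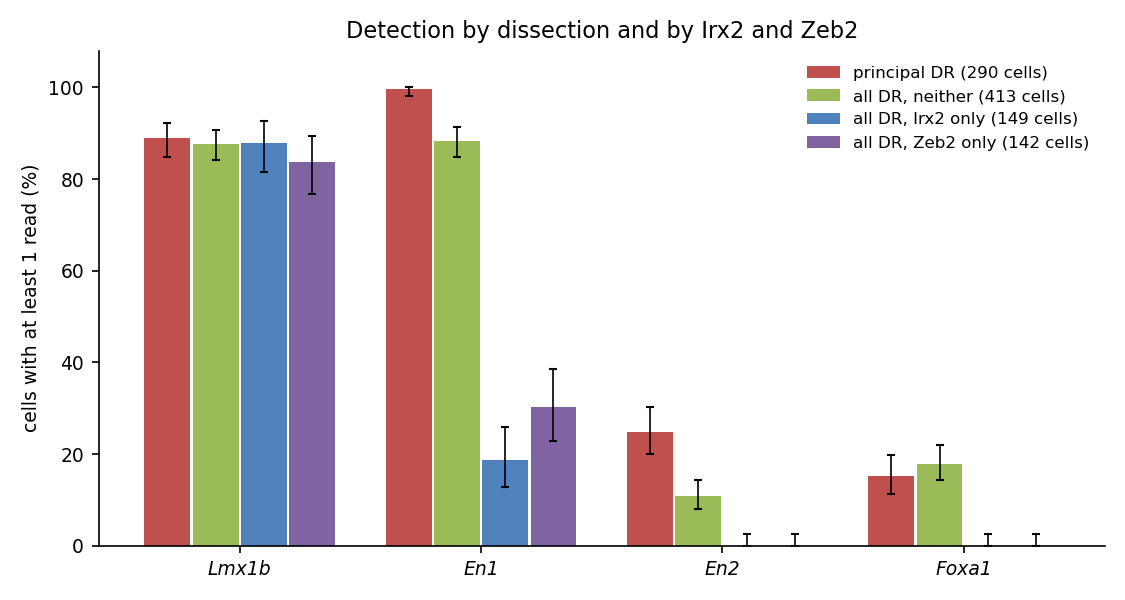
Share of cells with at least 1 read of Lmx1b, En1, En2 and Foxa1 in principal DR cells and in all DR cells with neither Irx2 nor Zeb2, with Irx2 only and with Zeb2 only; error bars are exact 95% intervals. En1 stands at 99.7%, 88.4%, 18.8% and 30.3% in these sets, and Lmx1b between 83.8% and 89.0%.

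Every cell with En2 had its relative En1. All 117 cells with En2 also had En1, and En2 was detected in 0 of the 272 cells without En1, which allows a share of up to 1.10%. The median within-plate r of the pair was 0.18 (0.02 to 0.56), above 0 on all 15 plates where En2 was detected. Among the 117 cells with En2, 73 were positive for Gad1 or Gad2, 46 for Trh, 1 for Zeb2 and 1 for Irx2. In Trh-positive cells its share was 33.3% (25.5 to 41.9%) against 8.25% (6.50 to 10.3%) in Trh-negative cells, and 23.2% against 4.81% after thinning to 250000 reads. These sets differ in dissection, since 98 of the 138 Trh-positive cells are from the principal DR. Within plates the median log2 ratio was 0.65 (-0.59 to 1.95), above 0 on 9 of 13 plates. That median was 1.22 over the principal DR plates (above 0 on 5 of 5) and 0.24 over the all DR plates (4 of 8), a difference that was not tested.

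Foxa1 was detected in few cells and nearly all of them were Slc17a8-positive. Foxa1, on chr12:57540628-57546916, was found in 108 of 649 Slc17a8-positive cells (16.6%, 13.9 to 19.7%) and in 10 of 350 Slc17a8-negative cells (2.86%, 1.38 to 5.19%). After thinning the shares were 13.9% and 2.01%. Within plates it was higher in Slc17a8-positive cells on 14 of 16 plates and not detected on the other 2, with a median log2 ratio of 1.43 (0 to 3.33). It was the only one of the 8 past 2-fold for this marker, beside 1.17% of genes tested in either direction. Because Foxa1 is low, this rests on the 1 CPM added: the median was 0.31 with 10 CPM added and 0.53 as a difference of mean log2(CPM+1), both short of 2-fold. In cells where it was found Foxa1 had a median of 9 reads and a mean of 18.0 CPM. Of its 118 cells, 117 had En1, 33 were positive for Gad1 or Gad2 and 5 for Trh. It was lower in Trh-positive cells on 13 of 13 plates (median log2 ratio -1.99, -2.79 to -0.54), though short of 2-fold with 10 CPM added (-0.40). With 10 CPM added Foxa1 also fell short for Zeb2 (-0.21) and Irx2 (-0.25). It was at 0 in all 150 Zeb2-positive cells, which allows a share of up to 2%, and in all 164 Irx2-positive cells, which allows up to 1.83%. Its dissections overlapped, with 44 of 290 principal DR cells (15.2%) and 74 of 709 all DR cells (10.4%). Foxa2, on chr2:148042877-148046969, was found in a single all DR cell with 12 reads (8.00 CPM), which also had Irx2, Tph2 at 7647 CPM and no read of the listed ependymal or dopamine neuron genes.

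For each transmitter marker Fev differed in 1 direction on nearly all plates, higher for Trh and Gad1 or Gad2 and lower for Slc17a8, though never past 2-fold in the median. Its mean was 319 CPM in Trh-positive and 205 CPM in Trh-negative cells, and it was higher on 13 of 13 plates (median log2 ratio 0.70, 0.45 to 1.06). Slc6a4 was also higher there on 13 of 13 plates (0.41) and Slc18a2 on 12 of 13 (0.37), and 0 of the 10 serotonin genes were past 2-fold, with a median over them of 0.22. The dopamine neuron list had a mean sum of 2.76 CPM in Trh-positive and 0.783 CPM in Trh-negative cells, with a median of 0 CPM in both. Its part in the differences was not tested. Fev was higher in cells with Gad1 or Gad2 on 15 of 16 plates (0.41, -0.16 to 0.62), and lower in Slc17a8-positive cells on 16 of 16 plates (-0.33, -0.68 to -0.07). These contrasts are not independent, since 126 of the 138 Trh-positive cells had Gad1 or Gad2 and only 31 had Slc17a8. Gata2 was likewise higher in Trh-positive cells on 12 of 13 plates (0.39) and lower in Slc17a8-positive cells on 15 of 16 (-0.28). For Gad1 or Gad2 it was higher on 11 of 16, with a median of 0.08. By dissection that median was 0.43 over the principal DR plates (higher on 4 of 5) and 0.03 over the all DR plates (7 of 11), a difference that was not tested. Lmx1b and Gata3 lay near 0 for Slc17a8 (-0.10 and -0.02) and for Gad1 or Gad2 (-0.01 and 0.08), with Lmx1b varying from -1.30 to 1.28 between plates for Slc17a8. For Gad1 or Gad2 the median of Lmx1b was 0.39 over the principal DR plates, higher on 4 of 5, and -0.16 over the all DR plates, higher on 3 of 11, and this difference was not tested. In Trh-positive cells Lmx1b was higher on 10 of 13 plates (0.25) and Gata3 on 10 of 13 (0.16). For Gad1 or Gad2 none of the 8 was past 2-fold over all 16 plates, beside 1.26% of genes tested in either direction. En2 came nearest at 0.80, above 0 on 12 of 16 plates. Foxa1 stood at -0.41 (-3.34 to 1.02), with -1.21 over the principal DR plates (higher on 2 of 5) and -0.41 over the all DR plates (3 of 11). For Trh, 1 of the 8 was past 2-fold, Foxa1, beside 5.28% in either direction, and the median over the 8 was 0.32 beside -0.06 over all genes tested.

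Whether the regulators follow the genes they are known to act on was described by the Pearson r of ln(CPM+1) across the cells of each plate, as the median over 16 plates. Cells of a plate share their library preparation, and measures of depth moved with some of these genes. With the number of detected genes the median r was 0.57 for Tph2, 0.64 for Slc6a4 and 0.22 for Slc18a2, 0.29 for Gata3 and 0.20 for Lmx1b, and between 0.03 and 0.12 for the other 5 regulators correlated. With ln(reads) it was 0.26 for Tph2, 0.31 for Slc6a4, 0.06 for Slc18a2 and 0.22 for Gata3, and between 0.02 and 0.12 for the other 6. With Tph2, 0 of the 7 regulators that could be correlated reached 0.2, beside 5.36% of genes tested. Gata3 came nearest at 0.18 (-0.30 to 0.60, above 0 on 12 of 16 plates), and passed 0.2 when any 1 of 8 of the plates was left out. By dissection Gata3 stood at 0.26 over principal DR plates (above 0 on 4 of 5), past 0.2, and at 0.13 over all DR plates (8 of 11). Fev stood at -0.08 (-0.37 to 0.55), above 0 on 4 of 16 plates, Lmx1b at 0.07 and Gata2 at 0.04. With Slc6a4, 3 of the 7 reached 0.2, beside 12.3% of genes tested. They were Gata2 at 0.30 (-0.04 to 0.62, above 0 on 15 of 16 plates), En1 at 0.22 (-0.20 to 0.46) and Fev at 0.21 (-0.25 to 0.72). By dissection, En1 stood at -0.03 over principal DR plates and 0.26 over all DR plates. Fev stood at 0.34 and 0.09, so that En1 and Fev each passed 0.2 in 1 dissection. Gata2 passed it in both, at 0.24 and 0.32. Gata3 (0.33 and 0.08) and Lmx1b (0.31 and 0.07), short of 0.2 over all 16 plates, passed it over the principal DR plates. These differences between dissections were not tested. With Slc18a2, only Gata2 reached 0.2, at 0.24 (-0.31 to 0.56, above 0 on 11 of 16 plates), beside 2.45% of genes tested. En1 stood at -0.17, with 0.06 over principal DR plates (above 0 on 3 of 5) and -0.23 over all DR plates (above 0 on 0 of 11), and Foxa1 at -0.13, below 0 on all 14 plates where it was detected.

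Some of these values changed when a few cells were left out. A choice made after seeing the data left out 17 cells: 10 with under 500 CPM of Tph2, Slc6a4 or Slc18a2, and 9 with at least 1000 CPM over the oligodendrocyte list, of which 2 met both. This lowered Gata2 with Slc18a2 to 0.12, Fev with Slc6a4 to 0.11 and Gata2 with Slc6a4 to 0.24, and took En1 with Slc6a4 to 0.27. Because 10 of the cells were picked by genes correlated here, the choice also narrowed the range of those genes. The part of that narrowing in the changes of r was not tested. With ln(reads) and detected genes adjusted for, Gata2 with Slc6a4 was 0.27, Fev with Slc6a4 0.25, En1 with Slc6a4 0.14 and Gata2 with Slc18a2 0.21, and Gata3 with Tph2 was 0.05. By Spearman rank correlation Gata2 with Slc6a4 was 0.17, Fev with Slc6a4 0.12 and En1 with Slc6a4 0.36. Tph2 correlated with Slc6a4 at 0.62 and with Ddc at 0.51, above its value with any of the 7; Ddc is the decarboxylase that completes serotonin synthesis. Over the 10 serotonin genes (Tph2, Ddc, Slc6a4, Slc18a2, Gch1, Maoa, Maob, Htr1a, Htr1b and Slc22a3), the median within-plate r reached 0.2 for 3 with Gata2, 3 with En1, 2 with Fev, 1 with Gata3 and 0 with Lmx1b, En2 and Foxa1. Of all genes tested, 3.94% reached it with Gata2, 1.77% with En1, 1.71% with Fev, 5.07% with Gata3, 0.0779% with Lmx1b, 0.195% with En2 and 0.709% with Foxa1. Gch1, which makes the cofactor of Tph2, reached it with Gata2 (0.27, above 0 on 16 of 16 plates), Fev (0.23, 14 of 16) and Gata3 (0.22, 12 of 16).

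**Figure D5:**
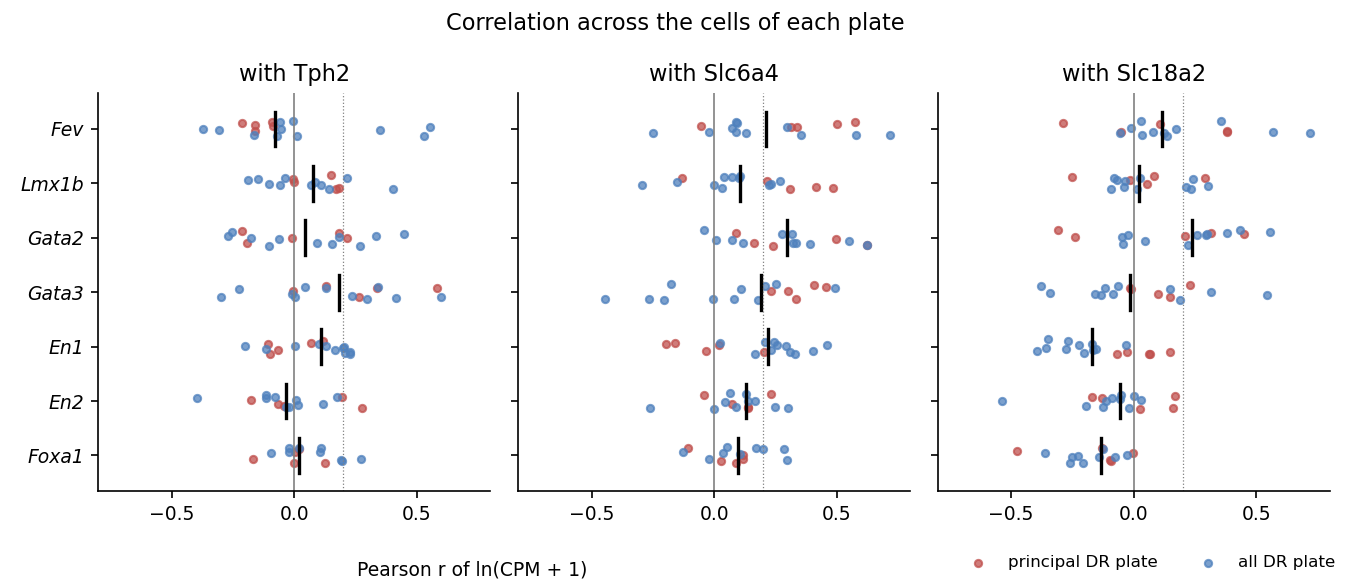
Pearson r of ln(CPM+1) of 7 regulators with Tph2, Slc6a4 and Slc18a2 across the cells of each plate; points are principal DR (red) and all DR (blue) plates, black lines are medians and the dotted line marks 0.2. Single plates spread from -0.54 to 0.72, and the median passes 0.2 for Gata2, En1 and Fev with Slc6a4 and for Gata2 with Slc18a2.

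Among the regulators themselves, Fev and Gata2 varied together most, with a median r of 0.29 (0.03 to 0.70), above 0 on 16 of 16 plates. Lmx1b and Gata2 stood at 0.16 (above 0 on 14 of 16 plates), Fev and Gata3 at 0.14 (12 of 16), Fev and Lmx1b at 0.14 (14 of 16) and En1 and Foxa1 at 0.20 (-0.53 to 0.41, above 0 on 11 of 14). The 125 cells without a read of Lmx1b had Gata2 in 118 and Gata3 in 124.

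The genes most like each regulator were sought among the 8087 genes with a mean of at least 10 CPM, by the same median r over 16 plates, or over 14 for Trh. For Fev they were Fam19a2 (0.43), Fam19a5 (0.42), Trh (0.42), Prmt8 (0.42) and Ly6h (0.41), and the lowest were Nr2f2 (-0.30), a nuclear receptor gene below 0 on 16 of 16 plates, and Rorb (-0.29), another nuclear receptor gene. For Gata2 they were Gaa (0.49), the lysosomal acid alpha-glucosidase, Syt13 (0.49), Gfra1 (0.48), a receptor for glial cell line-derived neurotrophic factor, Pitpnc1 (0.47) and Asic2 (0.46), an acid-sensing channel, and the lowest were Calm2 (-0.48), a calmodulin gene, and Galnt18 (-0.39). For Gata3 they were Pld3 (0.46), Syt5 (0.41), Aplp1 (0.41), Maged1 (0.40) and Psmd3 (0.38), and the lowest were Dlk1 (-0.32) and the mitochondrial ribosomal RNA mt-Rnr2 (-0.30). For En1 they were Gucy1a1 (0.53), a subunit of the nitric oxide receptor, Cbln4 (0.46), Spock1 (0.45), Bcat1 (0.44) and Vwc2 (0.44), and the lowest were Brinp1 (-0.43) and Zfhx4 (-0.38). Lmx1b had no gene above Syt13 (0.24), which was followed by Hk1 (0.23), Tox2 (0.21), Lasp1 (0.21) and Psmd3 (0.21), and the lowest were Ppia (-0.17) and Spcs1 (-0.15).

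Of 4 other developmental transcription factors (Nkx6-1 and Insm1, with Lmx1a and Gata1 as relatives of the regulators that are best known from other lineages), 0 were detected in at least 50% of cells. Insm1 was found in 25 cells, Gata1 in 11, Nkx6-1 in 10 and Lmx1a in 5. Of 7 genes of position along the brain axis, Hoxa3 and Hoxb3 were detected in 0 cells, Otx2, Gbx2 and Hoxb2 in 1 cell each and Hoxa2 in 5. The other was Pax5, a paired box factor of the midbrain and hindbrain border, found in 167 of 290 principal DR cells (57.6%) and 85 of 709 all DR cells (12.0%). Pax5 correlated with En1 at a median r of 0.26 (0.16 to 0.51), above 0 on all 15 plates where it was detected, and with En2 at 0.18, above 0 on 14 of 15. In the all DR dissection it was detected in 83 of the 438 cells with En1 and in 2 of the 271 without.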

How the data were processed

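Per the labels and the methods of the paper, single tdTomato-positive cells were sorted into plates and made into Smart-seq2 libraries, and the submitters' processing notes name bcl2fastq 2.19.0.316, STAR 2.6.1a and HTSeq 0.11.2 with the mouse genome mm10. The authors counted reads per gene ignoring strand, dropped Y-linked genes, and deposited values in CPM, with each cell summing to 1000000 and no log transform. Of the values above 0, 100% were whole multiples (tolerance 0.001) of what 1 read is worth in their cell, so read counts were recovered. A count test across samples was not run because each dissection was treated as 1 sample. The labels list 480 and 1056 cells of the principal DR and all DR dissections; the table held 290 and 709 of them, and the others were not analysed here. No cells were removed and no doublet caller was run, since cells were sorted singly.

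Ratios were taken with a pseudocount of 1 CPM and are thus understated for low genes. Background shares use the 12834 genes with a mean of at least 1 CPM that were detected in at least 3 cells, a filter that 6 of the 8 regulators passed (not En2 and Foxa2), and all 8 are counted wherever they could be computed. Foxa2, with 1 cell, was left out of correlations. The regulators, markers and gene lists were chosen with earlier results of these data known. Named genes are the 8 regulators, the markers, the members of the lists, and for each regulator detected in at least 50% of cells the 5 genes with the highest and the 2 with the lowest median within-plate r. One listed factor, Nkx2-2, was not analysed here. Some other listed genes are not reported here. Genes and exons are from GENCODE M21 (GRCm38, the build of mm10) and promoters from RefSeq (GRCm38.p6). The steps were checked on simulated counts. Python 3.11.15, NumPy 2.4.6, SciPy 1.17.1, pandas 2.3.3 and matplotlib 3.10.9 were used. Alternatives were other pseudocounts, detection rules, cell minimums, thinning to 250000 reads, pooling of cells, rank and depth-adjusted correlation, and each plate left out in turn.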

Additional observations from a re-analysis of the deposited data

How the results depend on the processing

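The number of regulators detected in at least 50% of cells stayed at 5 under every alternative run. The choice of pseudocount moved the counts past 2-fold most, and with 10 CPM added En1 fell short between dissections (0.94) and for Irx2 (-0.86), and Gata2 for Zeb2 was the only call left. With 10 CPM added, the counts were 0 between dissections, 0 for Slc17a8, 0 for Trh, 1 for Zeb2 and 0 for Irx2; with 0.1 CPM added they were 2 between dissections, 1 for Gad1 or Gad2 and 2 for Trh. With the difference of mean log2(CPM+1) they were 0 for Slc17a8, 0 for Trh and 1 for Irx2. For Trh, the count was 2 with positive cells called at 10 CPM and 2 with all cells pooled. For the count of r of at least 0.2, Slc6a4 gave 1 by Spearman, Slc18a2 gave 0 after thinning to 250000 reads and 0 without the 17 cells of low serotonin or high oligodendrocyte genes, and Tph2 gave between 0 and 1 as plates were left out in turn, with 1 (Gata3) without SER13, SER25, SER52, SER57, SER60, SER63, SER64 or SER67. Leaving out 1 plate gave between 2 and 4 for Slc6a4, with 2 without SER12, SER25, SER39, SER40 or SER55. Of 709 values of single regulators under an alternative, 673 moved by less than the spread between plates (for shares of cells, less than their interval), and 0 of those called past a threshold changed sign. This is a wide measure for correlations, since the SD over plates of r was 0.25 for Gata2 with Slc18a2. The fall of that r without the 17 cells lay within it. The correlation of Gata3 with Slc6a4 went from 0.19 to -0.11 when reads and detected genes were adjusted for, and that of Lmx1b with Tph2 from 0.07 to -0.10; the cause was not tested. Detection of Lmx1b fell to 72.2% at 5 reads and 61.1% at 10 CPM, and that of En1 to 68.7% and 64.1%. No paired analysis was possible because the plates of the dissections share no numbers; marker-positive and marker-negative cells were already compared within each plate, with no test. Depth limits En2 most, with a median of 3 reads in the cells where it was detected.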
